A study of Nannochloropsis oceanica with 6 samples.

Results

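The 36 genes described here carry the pathway label "Citrate cycle (TCA cycle)" in the annotation of the marine microalga Nannochloropsis oceanica, strain IMET1, out of 10569 genes in all. The rule used that label and no expression value; 1 further gene with the label, NO01G01420, was left out by the rule. mRNA was sequenced from 3 groups of 2 libraries. C0 cells were taken on day 0 from nitrogen-replete f/2 medium in the logarithmic phase under 80 µmol photons m-2 s-1 of continuous light. N1 and N2 cells had been washed 3 times and kept for 1 or 2 days in nitrogen-free f/2 medium under 50 µmol photons m-2 s-1. C0 cells were harvested before the washing, so nitrogen, day, light and transfer cannot be told apart. The group of the second N2 library came from its title, since its treatment label was missing. The study calls the libraries of a group biological replicates, but the labels do not say whether they came from separate cultures, and if not p-values measure the spread between 2 libraries, which may be technical.

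The citrate cycle oxidises acetyl-CoA in the mitochondrial matrix, passing electrons to NADH and to the quinone pool, and supplies carbon skeletons: 2-oxoglutarate for the assimilation of ammonium into glutamate, and oxaloacetate for aspartate. Pyruvate enters through the pyruvate dehydrogenase complex, which algae such as this one have in the mitochondrion and in the plastid, where its acetyl-CoA feeds fatty acid synthesis. Withdrawal of nitrogen slows growth in such algae and is used to make them store triacylglycerol.

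The label covered 14 enzyme steps. Of the genes, 20 were placed in steps of the cycle itself and 13 in the pyruvate dehydrogenase complex with its dihydrolipoyl dehydrogenase. The last 3 were those of pyruvate carboxylase and phosphoenolpyruvate carboxykinase. The 20 include genes described as peroxisomal or cytoplasmic, and NO16G00280, described as DHKTD1. With 1 description counted per gene, a mitochondrial location was named for 19 genes and a chloroplastic one for 2. A cytoplasmic one was named for 2 and a peroxisomal one for 1, while 12 descriptions named none. Those 12 include NO08G02730, counted by its description as DCAF1, a part of ubiquitin ligases. It is also annotated as a chloroplastic dihydrolipoyl dehydrogenase. All 36 also carried the label of carbon metabolism, 22 that of pyruvate metabolism and 4 that of oxidative phosphorylation. No NAD-dependent isocitrate dehydrogenase was among the members. Every member passed the filter of at least 1 CPM, the count scaled to library size, in at least 2 libraries, and so did 9736 genes of the whole table. Library totals ran from 4875888 to 6523021 estimated counts.

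Most of the 36 members were higher in both nitrogen-free groups than in C0. Between C0 and N1, 30 of the 36 rose, 3 fell and 3 did not pass the test, while of all genes tested 70.4% were called, 33.3% rising and 37.1% falling; the median log2 fold change was 1.32 for the members and -0.04 for all genes. Between C0 and N2 the counts were again 30, 3 and 3, while 69.9% of all genes were called, 35.0% rising and 34.9% falling, and the medians were 1.03 and 0.01. A rise of at least 2-fold was called for 23 members in N1 (13.3% of all genes) and for 19 in N2 (13.8%). From N1 to N2, 6 members rose, 19 fell and 11 did not pass, while 57.9% of all genes were called, 29.4% rising and 28.5% falling, with medians of -0.25 and 0.00. With library totals in place of TMM factors the last split was 10 against 17. Here and below a call is an adjusted p under 0.05 in edgeR's quasi-likelihood test over all 9736 genes, and a value after ± beside a log2 fold change is its standard error. In RNA from whole cultures, a change in the share of cells using a gene and a change per cell cannot be told apart, and all values are relative to the mRNA of the library.

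**Figure D1:**
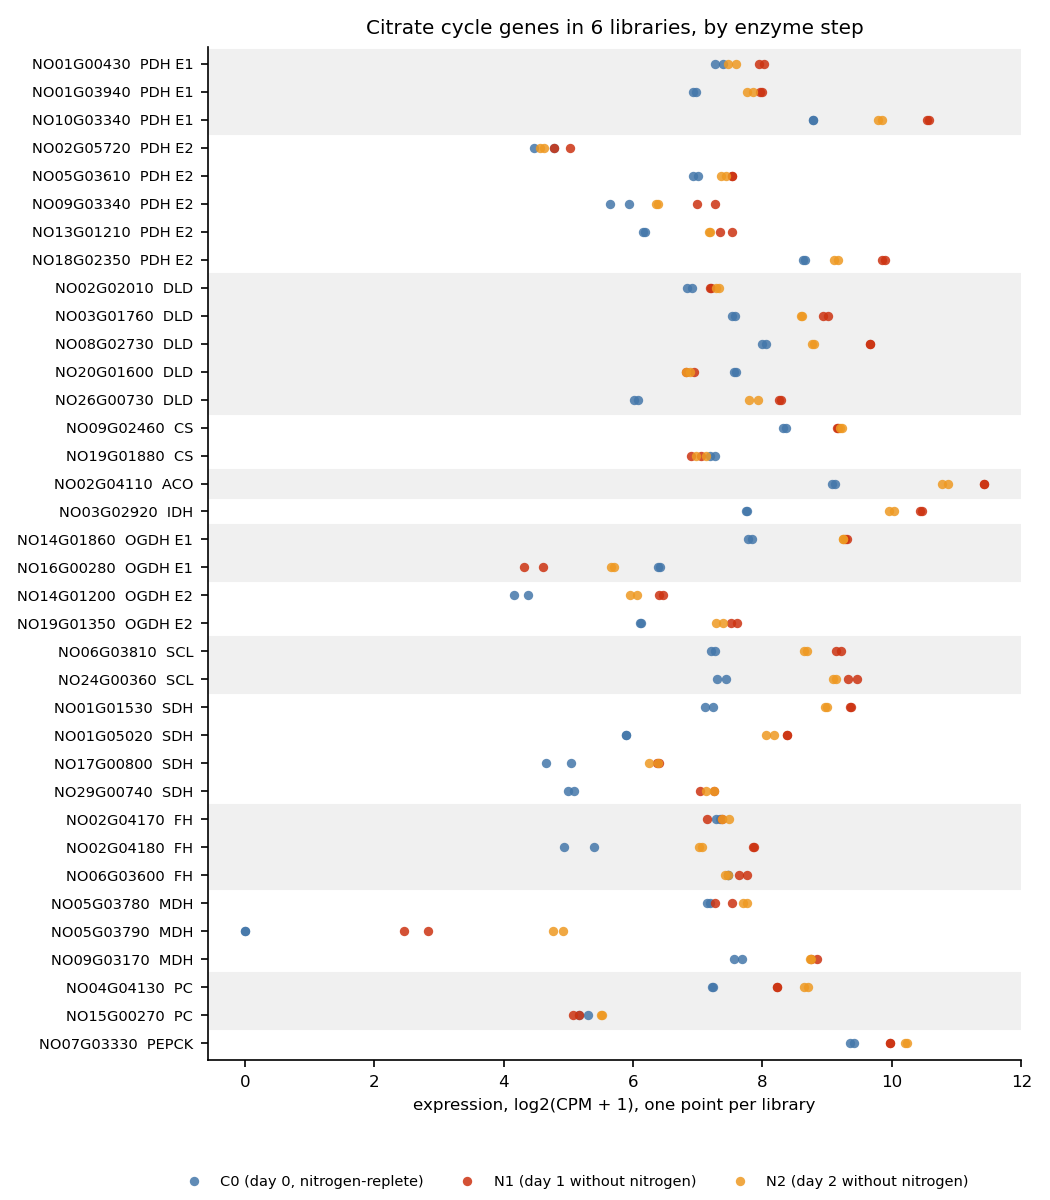
Expression of each of the 36 citrate cycle genes, log2(CPM + 1), with 1 point per library (2 each of C0, N1 and N2) and genes ordered by enzyme step. PDH stands for pyruvate dehydrogenase, DLD dihydrolipoyl dehydrogenase, CS citrate synthase, ACO aconitate hydratase, IDH isocitrate dehydrogenase, OGDH 2-oxoglutarate dehydrogenase, SCL succinyl-CoA ligase, SDH succinate dehydrogenase, FH fumarate hydratase, MDH malate dehydrogenase, PC pyruvate carboxylase and PEPCK phosphoenolpyruvate carboxykinase. The N1 and C0 points do not overlap for 34 of the genes (84.4% of all genes tested), the N2 and C0 points for 35 (84.8%) and the N2 and N1 points for 32 (78.2%).

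The share of the library's mRNA held by these genes more than doubled. In TPM, the transcript share of a library per length, their sum was 0.415% and 0.399% of all TPM in the C0 libraries, 1.12% and 1.14% in the N1 pair and 0.989% and 0.997% in the N2 pair. The median member had 104 and 108 TPM on day 0, then 237 and 236 TPM on day 1 and 207 and 216 TPM on day 2, while the median of all genes tested lay between 46.5 and 51.2 TPM in every library. The summed TPM of each of the 14 steps was higher in both N1 and both N2 libraries than in either C0 library.

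**Figure D2:**
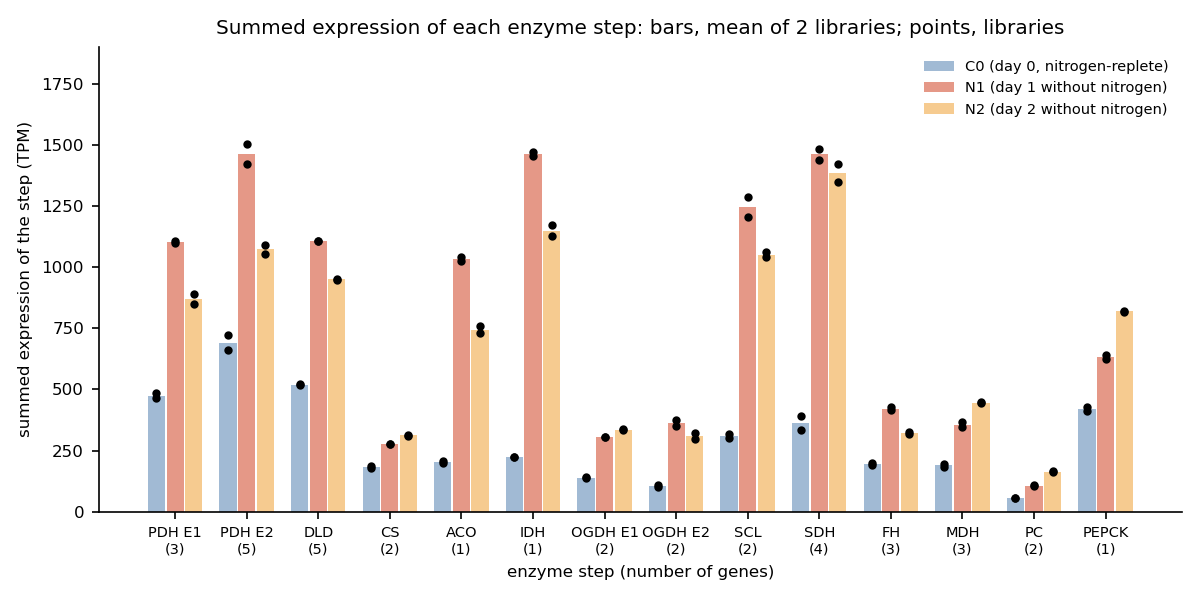
Summed expression of the genes of each enzyme step in TPM, with bars for the mean of 2 libraries and points for the libraries; abbreviations are as in the plot of CPM by library. Isocitrate dehydrogenase went from a mean of 224 TPM in C0 to 1464 in N1, while citrate synthase went from 183 to 275.

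By summed TPM, isocitrate dehydrogenase and aconitase were the steps with the highest ratio of N1 to C0, 6.54 and 5.05; in N2 the ratio was 5.13 for the former, 3.82 for succinate dehydrogenase and 3.64 for aconitase. NADP-dependent isocitrate dehydrogenase (NO03G02920), which makes 2-oxoglutarate and NADPH, stood at 214 and 217 CPM in the C0 libraries, 1378 and 1418 in the N1 pair and 992 and 1041 in the N2 pair. It rose by 2.70 ± 0.044 in N1 (log2, 6.5-fold; adjusted p = 6.5e-16) and was still 2.24 ± 0.043 above C0 in N2, after falling by 0.46 ± 0.04 from N1. Aconitate hydratase (NO02G04110), which turns citrate into isocitrate, stood at 558 and 536 CPM in the C0 libraries, 2731 and 2757 in the N1 pair and 1758 and 1864 in the N2 pair. Its rise was 2.33 ± 0.037 in N1 and 1.73 ± 0.036 in N2, and it too fell between the days (-0.60 ± 0.035). For both genes the 3 groups of libraries lay apart, with C0 lowest and N1 highest. Estimated counts of aconitase were not whole numbers, and in all 6 libraries their fractions added up to a whole number, within 0.015, with those of the neighbouring gene NO02G04100, which has no description; such a pair is taken below as sharing reads. That neighbour had mean levels of 47.0, 102 and 72.9 CPM in C0, N1 and N2, far below those of aconitase. The function terms of NO02G04110 also name NADP-dependent isocitrate dehydrogenase activity, and which product its reads came from was not tested.

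Citrate synthase, which joins acetyl-CoA to oxaloacetate, rose less and was divided between its 2 genes. The mitochondrial gene (NO09G02460) stood at 329 and 317 CPM in the C0 libraries, 569 and 572 in the N1 pair and 584 and 596 in the N2 pair. It rose by 0.82 ± 0.045 in N1 and by 0.87 ± 0.045 in N2, with no call between the days (interval of the log2 difference, -0.04 to 0.14). The gene described as peroxisomal (NO19G01880) has the plastid among its function terms. It had 152 and 145 CPM in the C0 libraries, 118 and 131 in the N1 pair and 124 and 139 in the N2 pair. It was lower by 0.25 ± 0.076 in N1 and by 0.17 ± 0.072 in N2, but the calls were lost in 3 and 7 of 15 alternatives, with adjusted p between 0.0015 and 0.0944 for N1 and between 0.015 and 0.377 for N2. Leaving out the first C0 library took both calls, the first N1 library took that of N1, and the second C0 or the first N2 library took that of N2. Without the first N2 library the difference from C0 was -0.09, and without the second it was -0.26. The mitochondrial gene held 70.6% of the step's TPM in C0, 83.5% in N1 and 83.2% in N2. Both genes shared reads with a neighbour: NO09G02460 with NO09G02450, described as a splicing factor, and NO19G01880 with NO19G01890, described as a BI1-like protein, whose mean fell from 139 CPM in C0 to 78.0 in N1.

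The 2-oxoglutarate dehydrogenase complex, which turns 2-oxoglutarate into succinyl-CoA, had 2 genes labelled as its E1 component, which moved in opposite directions, and 2 labelled as E2, which both rose. The E1 gene NO14G01860 stood at 219 and 227 CPM in the C0 libraries, 616 and 630.0 in the N1 pair and 607 and 604 in the N2 pair, a rise of 1.48 ± 0.046 in N1 and 1.44 ± 0.046 in N2 with no call between the days. The other gene with that label, NO16G00280, is described as DHKTD1, a relative of E1 that in human cells acts on 2-oxoadipate in the breakdown of lysine. It stood at 84.3 and 82.7 CPM in the C0 libraries, 18.8 and 23.4 in the N1 pair and 49.8 and 51.2 in the N2 pair. It fell by 1.99 ± 0.11 in N1 (a fold of 3.96 lower; adjusted p = 7.6e-10) and rose by 1.26 ± 0.12 from N1 to N2, ending 0.73 ± 0.092 below C0; its fall in N1 was the strongest of the set, and it was the sole member to fall on day 1 and rise from day 1 to day 2 (18.0% of all genes tested). Its share of the E1 TPM went from 24.5% in C0 to 2.87% in N1 and 6.77% in N2.

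Both E2 genes of that complex, the succinyltransferases, rose. NO19G01350 stood at 67.9 and 68.5 CPM in the C0 libraries, 193 and 183 in the N1 pair and 166 and 154 in the N2 pair, and NO14G01200 had 16.9 and 19.7 CPM on day 0, then 87.6 and 83.3 on day 1 and 65.6 and 60.7 on day 2. The rises in N1 were 1.46 ± 0.07 and 2.22 ± 0.11, and those in N2 were 1.23 ± 0.069 and 1.78 ± 0.11. Both fell from N1 to N2, by 0.23 ± 0.06 and 0.44 ± 0.087. For NO19G01350 that fall was -0.14 with library totals alone and lost its call there and with limma on FPKM, with adjusted p from 0.0015 to 0.0715 over the alternatives.

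Succinyl-CoA ligase, whose 2 subunits make ATP from succinyl-CoA, rose in both. The alpha subunit (NO06G03810) stood at 146 and 153 CPM in the C0 libraries, 562 and 594 in the N1 pair and 399 and 411 in the N2 pair. The beta subunit (NO24G00360) had 172 and 156 CPM on day 0, then 636 and 700.1 on day 1 and 541 and 559.6 on day 2. Their rises in N1 were 1.95 ± 0.052 and 2.03 ± 0.061, and the beta subunit held 65.2% of the step's TPM in C0, 66.4% in N1 and 69.7% in N2. Both fell again from N1 to N2, by 0.51 ± 0.047 and 0.28 ± 0.055, while staying above C0 by 1.44 ± 0.052 and 1.75 ± 0.06. With library totals alone the fall of the beta subunit was -0.18, still called.

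All 4 subunits of succinate dehydrogenase, the enzyme that is also complex II of the respiratory chain, rose in N1 and N2. The flavoprotein (NO01G01530), which holds the active site, stood at 150.4 and 137 CPM in the C0 libraries, 651 and 658 in the N1 pair and 499.8 and 510.4 in the N2 pair. The iron-sulfur subunit (NO01G05020), which carries the electrons on, had 58.1 and 58.2 CPM on day 0, then 331 and 332 on day 1 and 287 and 266 on day 2, and its rise of 2.25 ± 0.066 in N2 was as high as that of isocitrate dehydrogenase (2.24). The membrane anchors are the cytochrome b560 subunit (NO17G00800) and a gene known here by its SDHD label (NO29G00740). NO17G00800 stood at 32.0 and 24.1 CPM in the C0 libraries, 81.7 and 83.1 in the N1 pair and 82.7 and 74.7 in the N2 pair. NO29G00740 had 32.9 and 31.0 CPM on day 0, then 130.4 and 151 on day 1 and 152 and 139 on day 2. The flavoprotein and iron-sulfur subunits peaked in N1, with falls of 0.37 ± 0.048 and 0.26 ± 0.054 to N2, whereas neither anchor was called between the days (intervals -0.27 to 0.14 and -0.11 to 0.22). Rises in N1 were 2.19 ± 0.053 for the flavoprotein, 2.51 ± 0.066 for the iron-sulfur subunit, 1.56 ± 0.12 for NO17G00800 and 2.13 ± 0.099 for NO29G00740; whether the subunits differed from each other was not tested. The fall of the iron-sulfur subunit was -0.16 with library totals alone, still called, and its estimated counts were not whole in 2 libraries, where it shared reads with NO01G05030, which has no description.

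Fumarate hydratase, which adds water to fumarate to give malate, had 3 genes, and the one with the largest share of the step's TPM was of class II in C0 and of class I in N1 and N2. One of its 2 class I genes (NO02G04180) stood at 29.4 and 41.2 CPM in the C0 libraries, 231 and 232 in the N1 pair and 132 and 129 in the N2 pair. It rose by 2.71 ± 0.098 in N1, a rise as high as that of isocitrate dehydrogenase (2.70), then fell by 0.82 ± 0.077 to N2 and stayed 1.89 ± 0.10 above C0. The other class I gene (NO02G04170), of the next lower number, averaged 158 CPM in C0, 152 in N1 and 171 in N2, with log2 differences from C0 of -0.06 ± 0.075 and 0.12 ± 0.072 that did not pass the test. The class II gene (NO06G03600) stood at 175 and 176 CPM in the C0 libraries, 198 and 215 in the N1 pair and 169.7 and 175 in the N2 pair, a rise of 0.23 ± 0.059 in N1 and none called in N2 (interval -0.15 to 0.10); it fell by 0.26 ± 0.058 from N1 to N2, a change of -0.17 with library totals alone, still called. As a share of the step's TPM, NO02G04180 went from 18.6% in C0 to 57.2% in N1 and 45.7% in N2, and the class II gene from 63.8% to 35.0% and 41.6%. Counts of both class I genes were not whole in any library, and no single neighbour completed them; the label of NO02G04170 in the KOG column of the deposited annotation is a proteasome ATPase, so its reads cannot be given to either product.

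Malate dehydrogenase, which returns malate to oxaloacetate, included a gene without a count in C0. NO05G03790, described as cytoplasmic, had 0 counts in both C0 libraries, 6.14 and 4.48 CPM in the N1 pair and 26.1 and 29.2 CPM in the N2 pair. Against a floor of 3 counts per library, 0.585 CPM, it was at least 9.08-fold higher in N1 and at least 47.3-fold higher in N2, and it rose by 2.37 ± 0.23 from N1 to N2. The gene of the next lower number, NO05G03780, has the same description and stood at 141 and 145 CPM in the C0 libraries, 153 and 184 in the N1 pair and 206 and 216 in the N2 pair. It rose by 0.24 ± 0.077 in N1, 0.56 ± 0.073 in N2 and 0.33 ± 0.072 between the days; the rise in N1 was 0.37 without the first N1 library and 0.15 without the second, which took the call, as did leaving out the first C0 library and limma on FPKM, with adjusted p from 0.00047 to 0.145 over the alternatives. Without the first N1 library its rise between the days was 0.20. Estimated counts of this pair, where not whole, added up to whole numbers, within 0.025, with those of NO05G03800, a translation initiation factor. The mitochondrial gene (NO09G03170) stood at 187 and 204 CPM in the C0 libraries, 431 and 459.5 in the N1 pair and 426 and 428 in the N2 pair, rising by 1.18 ± 0.055 in N1 and 1.12 ± 0.055 in N2 without a call between the days. It held 58.2% of the step's TPM in C0, 70.9% in N1 and 59.0% in N2, and NO05G03790 held 0, 2.81% and 12.2%.

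**Figure D3:**
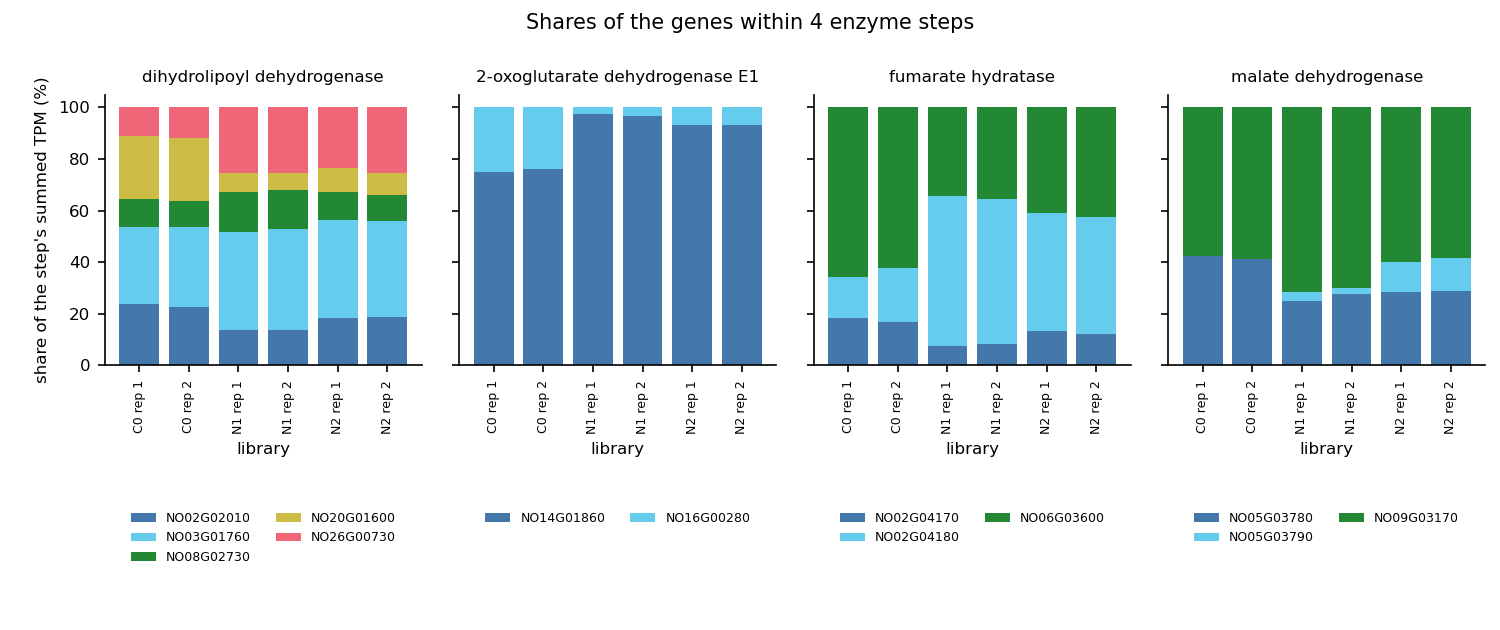
Share of each gene in the summed TPM of its enzyme step (%), 1 bar per library, for dihydrolipoyl dehydrogenase, the E1 component of 2-oxoglutarate dehydrogenase, fumarate hydratase and malate dehydrogenase. The fumarase NO02G04180 went from a mean of 18.6% in C0 to 57.2% in N1, and NO16G00280 from 24.5% to 2.87%.

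The E1 component of pyruvate dehydrogenase, which removes carbon dioxide from pyruvate, rose in all 3 of its genes. NO10G03340, described as the chloroplastic alpha subunit, stood at 441 and 437 CPM in the C0 libraries, 1495 and 1516 in the N1 pair and 877 and 923 in the N2 pair. The mitochondrial alpha subunit (NO01G03940) had 125 and 120.4 CPM on day 0, then 254 and 249 on day 1 and 217 and 229.5 on day 2. The mitochondrial beta subunit (NO01G00430) stood at 166 and 154 CPM in the C0 libraries, 246 and 259 in the N1 pair and 176 and 193 in the N2 pair. In N1 the chloroplastic gene rose by 1.78 ± 0.04, against 1.04 ± 0.059 and 0.66 ± 0.065 for the mitochondrial pair, and in N2 the values were 1.04 ± 0.04, 0.86 ± 0.058 and 0.20 ± 0.065. All 3 fell from N1 to N2, by 0.74 ± 0.039, 0.17 ± 0.055 and 0.45 ± 0.063. The N2 rise of NO01G00430 lost its call with DESeq2, without the second C0 library and without the second N2 library, where it was 0.13, with adjusted p from 0.0029 to 0.134 over the alternatives. The fall of NO01G03940 between the days was -0.08 with library totals alone, which took its call, as did limma on FPKM and leaving out the first N1 or the first N2 library, with adjusted p from 0.0048 to 0.226.

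The E2 component, the acetyltransferase that passes the acetyl group to coenzyme A, had 5 genes, of which 4 rose in N1 and N2. The chloroplastic gene (NO18G02350) stood at 401 and 394 CPM in the C0 libraries, 946 and 925 in the N1 pair and 549 and 576 in the N2 pair. NO13G01210, described as component 1 of the mitochondrial complex, had 71.4 and 69.9 CPM on day 0, then 162 and 184 on day 1 and 143 and 145 on day 2. NO09G03340 stood at 59.9 and 49.2 CPM in the C0 libraries, 126 and 154 in the N1 pair and 80.8 and 82.8 in the N2 pair. These 3 rose in N1 by 1.24 ± 0.045, 1.29 ± 0.076 and 1.36 ± 0.11 and fell to N2 by 0.73 ± 0.044, 0.26 ± 0.066 and 0.77 ± 0.096, remaining above C0 by 0.50 ± 0.044, 1.03 ± 0.075 and 0.59 ± 0.11. The fall of NO13G01210 was -0.17 with library totals alone and its call was lost with limma on FPKM, with adjusted p from 0.00087 to 0.0715. NO05G03610 averaged 124, 184 and 168 CPM in C0, N1 and N2, rising by 0.57 ± 0.06 and 0.43 ± 0.058. NO02G05720, with means of 23.8, 29.1 and 23.1 CPM, did not pass in any comparison; its intervals against C0 were -0.05 to 0.62 in N1 and -0.37 to 0.29 in N2. NO09G03340 shared reads with NO09G03330, described as an ATP-dependent permease. The function terms of NO09G03340 name pyruvate dehydrogenase and ion channel activities but no transferase activity. Its place in this step rests on its description and orthology label.

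Dihydrolipoyl dehydrogenase (E3) is used in common by the pyruvate and 2-oxoglutarate complexes and by the glycine cleavage system, and its 5 genes moved in both directions. NO26G00730 stood at 63.9 and 66.2 CPM in the C0 libraries, 304 and 309.7 in the N1 pair and 221 and 243 in the N2 pair, a rise of 2.24 ± 0.068 in N1 and 1.83 ± 0.068 in N2. The gene described as mitochondrial (NO03G01760) had 183 and 189.5 CPM on day 0, then 489.8 and 515 on day 1 and 388 and 386 on day 2, a rise of 1.43 ± 0.05 and 1.06 ± 0.049. NO08G02730 stood at 266 and 253 CPM in the C0 libraries, 809 and 812 in the N1 pair and 442 and 434 in the N2 pair, a rise of 1.64 ± 0.046 and 0.75 ± 0.046; it is annotated both as a chloroplastic dihydrolipoyl dehydrogenase and as DCAF1, a part of ubiquitin ligases, so its reads cannot be given to either product. These 3 fell from N1 to N2, by 0.40 ± 0.057, 0.38 ± 0.046 and 0.89 ± 0.044, the last being the strongest fall between the days in the set. NO20G01600 stood at 191 and 187 CPM in the C0 libraries, 122 and 111 in the N1 pair and 117 and 112 in the N2 pair and fell by 0.69 ± 0.064 in N1 and 0.72 ± 0.062 in N2, without a call between the days. NO02G02010 averaged 117, 146 and 157 CPM and rose by 0.32 ± 0.063 and 0.43 ± 0.06. NO20G01600 held 24.4% of the step's TPM in C0, 6.94% in N1 and 8.97% in N2, and NO26G00730 held 11.5%, 25.5% and 24.4%. NO20G01600, NO26G00730 and NO02G02010 are described as soluble pyridine nucleotide transhydrogenases, relatives of E3, and were placed here by their orthology label. NO20G01600 shared reads with the neighbouring NO20G01610, a mitochondrial serine hydroxymethyltransferase that rose from a mean of 155 CPM in C0 to 419 in N1.

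The 3 genes of pyruvate carboxylase and phosphoenolpyruvate carboxykinase, the enzymes between oxaloacetate and the products of glycolysis, all rose from N1 to N2, when 19 of the 36 members fell. Of all genes tested, 29.4% rose and 28.5% fell between these days. Pyruvate carboxylase (NO04G04130), which makes oxaloacetate from pyruvate, stood at 149.6 and 149 CPM in the C0 libraries, 299 and 298 in the N1 pair and 400.4 and 417 in the N2 pair. It rose by 1.00 ± 0.053 in N1 and 1.45 ± 0.051 in N2, and by 0.45 ± 0.048 between the days. ATP-dependent phosphoenolpyruvate carboxykinase (NO07G03330), which links oxaloacetate and phosphoenolpyruvate, had 681 and 653 CPM on day 0, then 1002 and 999 on day 1 and 1176 and 1202 on day 2, with rises of 0.58 ± 0.038, 0.83 ± 0.038 and 0.25 ± 0.038. The second pyruvate carboxylase (NO15G00270), whose KOG label is that of a subunit of acyl-CoA carboxylases, stood at 34.7 and 38.3 CPM in the C0 libraries, 32.5 and 34.7 in the N1 pair and 44.3 and 44.9 in the N2 pair. It was not called in N1 (interval -0.37 to 0.13) and rose by 0.29 ± 0.11 in N2 and by 0.41 ± 0.11 from N1; the first of these calls was lost with DESeq2, with limma on FPKM and without the first C0 or either N2 library, with adjusted p from 0.0131 to 0.184, and the second with DESeq2 (0.0011 to 0.0979). The other 3 members that rose from N1 to N2 were both cytoplasmic malate dehydrogenases and NO16G00280.

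**Figure D4:**
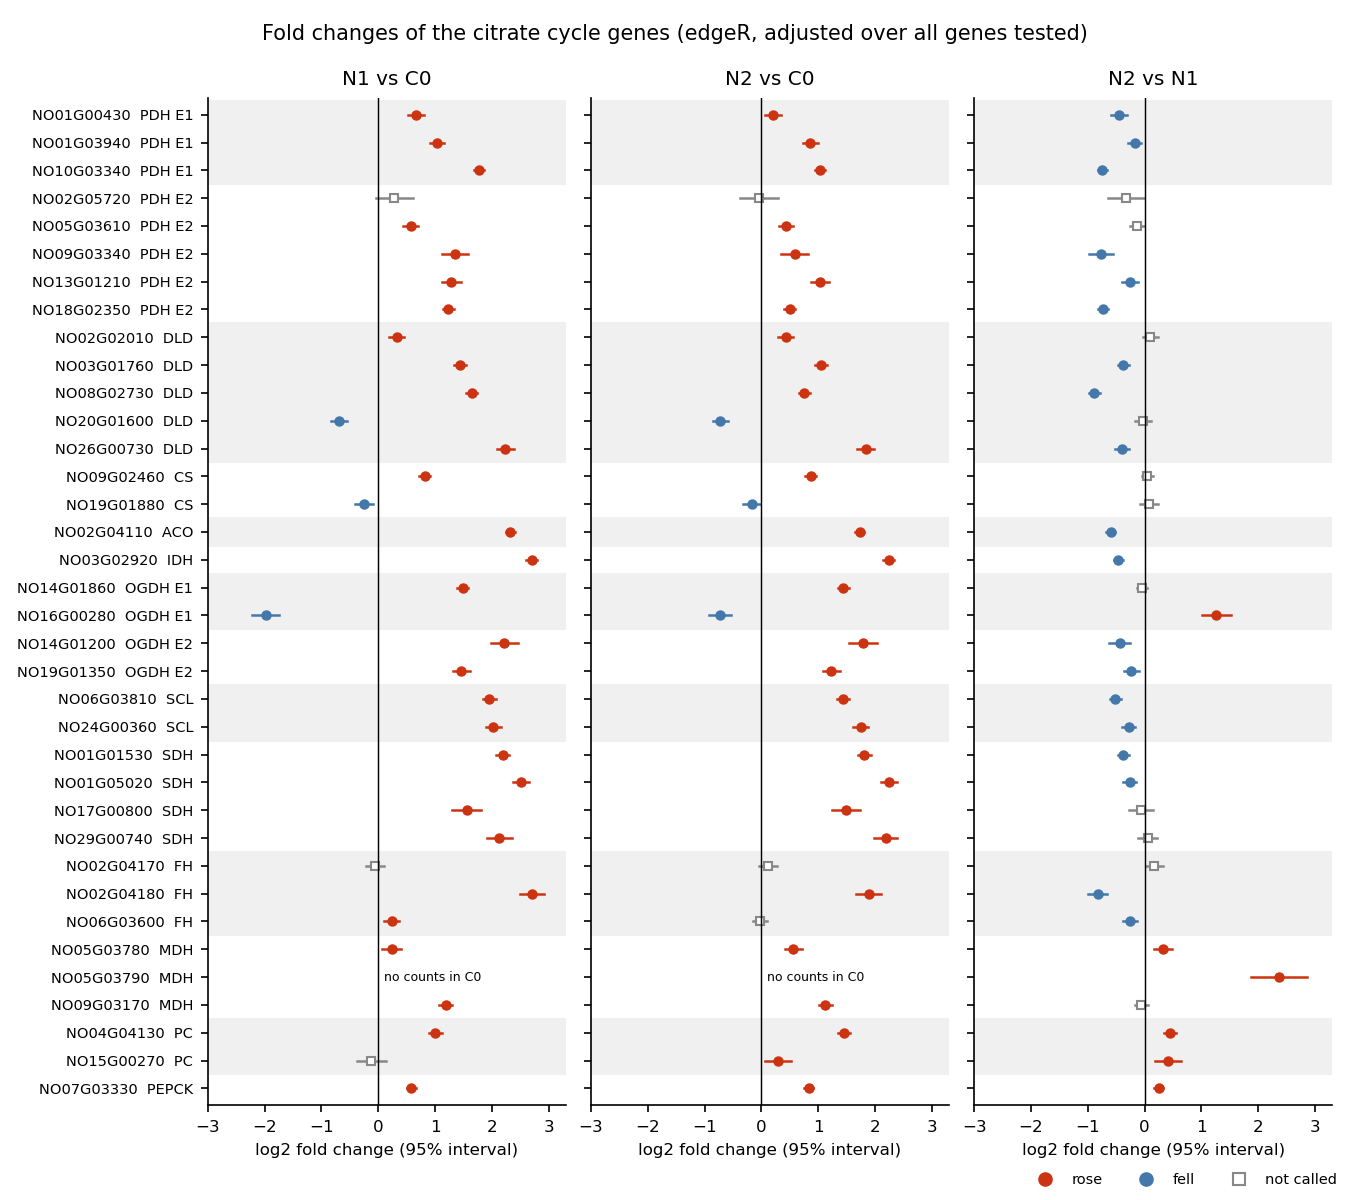
Log2 fold change of each citrate cycle gene in the 3 comparisons, with 95% intervals; filled red points rose, filled blue points fell and open grey squares did not pass the test (edgeR, adjusted over all 9736 genes tested). Between N1 and N2 the falls of 19 members all lie under 2-fold, and 3.66% of all genes tested fell by at least 2-fold. NO05G03790 has no value against C0, where it had no counts, and abbreviations are as in the plot of CPM by library.

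By time course, 19 members rose in N1 and fell to N2, and 18 of these were still above C0 by the test, the exception being the class II fumarase; the same patterns held for 17.7% and 10.6% of all genes tested. A further 7 rose in N1 and were not called between the days, among them mitochondrial citrate synthase and malate dehydrogenase, NO14G01860 and both succinate dehydrogenase anchors (11.4% of all genes). The 4 that rose in both intervals were pyruvate carboxylase NO04G04130, phosphoenolpyruvate carboxykinase and the cytoplasmic malate dehydrogenases (4.25% of all genes). In all, 29 members rose against C0 on both days, as did 24.8% of all genes. N1 and N2 were compared with the same C0 libraries, so these counts are not independent. The N1 libraries likewise enter N1 against C0 and N2 against N1 with opposite signs. Noise in N1 alone would therefore favour a rise followed by a fall, or the reverse. None of the falls from N1 to N2 reached 2-fold (3.66% of all genes tested), and 2 rises did (8.70%), those of NO05G03790 and NO16G00280. At shares this low, such counts among so few genes do not set the members apart.

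The deposited mean transcript length, which weights a gene's transcripts by their abundance, differed most for pyruvate carboxylase NO04G04130 among the 11 members with several transcripts. It was 5359 and 5309 bases in the C0 libraries, 4928 and 5037 bases after 1 day and 4838 and 4763 bases after 2 days. The 3 groups did not overlap, and each lay lower than the one before. Its TPM, which divide by that length, went from a mean of 44.0 in C0 to 95.3 in N1 and 148 in N2. Part of its reads were shared with the neighbouring NO04G04140, a phytol kinase with means of 4.38, 0.198 and 0.677 CPM; which transcripts of pyruvate carboxylase changed was not tested. Among the other 10 genes the range over libraries was at most 154 bases, in NO20G01600. The N1 and N2 lengths both lay apart from those in C0 also for NO09G03340, NO08G02730 and NO29G00740. The share of all genes with such a shift was not computed.

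**Figure D5:**
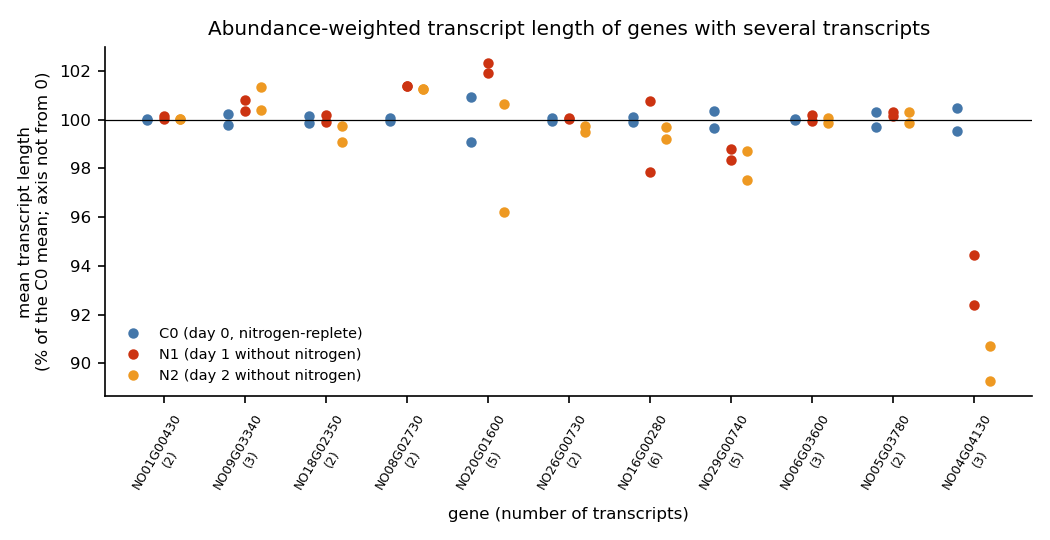
Abundance-weighted mean transcript length of the 11 citrate cycle genes with several transcripts, as a percentage of the mean of the 2 C0 libraries, with 1 point per library; the vertical axis does not start at 0. Pyruvate carboxylase NO04G04130 falls from a mean of 5334 bases in C0 to 4983 in N1 and 4801 in N2.

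The lists of genes around the cycle are to be read against all genes tested, of which 33.3% rose and 37.1% fell in N1 and 35.0% and 34.9% in N2. From N1 to N2, 29.4% of all genes rose and 28.5% fell. The list of pyruvate dehydrogenase kinases, which switch the mitochondrial complex off, had 4 genes: 3 rose and none fell in N1, 3 rose and 1 fell in N2, and all 4 fell from N1 to N2. Their median log2 fold change was 1.67 in N1 and 1.11 in N2, beside the -0.04 and 0.01 of all genes. NO03G02660 rose most of them, from a mean of 49.5 CPM in C0 to 327 in N1 and 273.0 in N2. In the search list for the glyoxylate cycle, which bypasses the steps that release carbon dioxide, 6 of 11 tested genes rose and 3 fell in N1, and 3 rose and 3 fell in N2 (medians 0.26 and -0.07). Its defining enzymes were both higher: isocitrate lyase (NO06G01840) had means of 423, 1267 and 1585 CPM in C0, N1 and N2 and rose in all 3 comparisons, and malate synthase (NO02G01090) had means of 389, 1395 and 1128 CPM and fell by 0.31 between the days, while a second malate synthase (NO02G03280) had 103, 129 and 94.4 CPM and rose in N1 but was not called in N2. The other genes of that list included glyoxylate reductases and, through the search words, enzymes outside the bypass.

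Of 8 genes of pyruvate turnover and anaplerosis, 6 rose and 1 fell on each day against C0 (medians 0.94 and 0.60). Phosphoenolpyruvate carboxylase (NO11G00760) rose by 0.73 in N1 and 0.48 in N2, and a pyruvate kinase (NO03G04590) fell by 1.30 and 0.74. Of 7 genes where amino acids enter the cycle, 3 rose and 2 fell in N1 and 4 rose and 2 fell in N2 (medians 0.01 and 0.59). NADP-dependent glutamate dehydrogenase (NO16G00690), which joins 2-oxoglutarate and ammonium, had means of 339, 1776 and 834 CPM, whereas the NAD-dependent enzyme (NO01G02980) had 78.0, 78.8 and 244 CPM and rose in N2 but was not called in N1. Of 9 mitochondrial carriers of organic acids and pyruvate, 5 rose and 3 fell in N1, and 4 rose and 3 fell in N2 (medians 0.54 and 0.38).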

How the data were processed

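Poly-A RNA was sequenced by the study as paired, strand-nonspecific reads, without strand in the counting. The processing notes name Trim Galore, STAR, Picard, featureCounts, StringTie and edgeR, with the NanDeSyn assembly of IMET1 as the reference; versions are not given in the sources used here. The authors deposited, per library and gene, expected counts (estimated, not always whole), TPM and FPKM with annotation columns. A table layout of this kind comes from a program that divides ambiguous reads among genes and transcripts, and no source names it. The deposited comparison tables hold the authors' fold changes and p-values and were not used. The table of each library was matched to its sample.

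Expected counts were rounded to whole numbers, since whole counts had been foreseen for the test. After a filter on low values (1 CPM or more in 2 or more libraries, met by 9736 of 10569 genes), the table entered a quasi-likelihood fit in edgeR 4.0.16 (R 4.3.3) with TMM factors (0.962 to 1.04), all 6 libraries and group as the only term, with Benjamini-Hochberg adjustment over all genes. CPM printed are TMM-scaled. A standard error is the estimate over the root of its F statistic, and intervals cover 95%. Alternatives used DESeq2 1.42.0, limma 3.58.1 on log2(FPKM + 1) and log2(FPKM + 0.1), other scalings and filters, and left out each library in turn. Totals of 4875888 to 6523021 counts gave members a median standard error of 0.063, 0.061 and 0.058 for N1 against C0, N2 against C0 and N2 against N1. Figures used matplotlib 3.10.9.

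The members follow from the pathway label, without expression values, but the pathway, the step searches and the neighbouring lists were chosen with earlier results of these data known. A search of descriptions placed 32 members in a step, and 4 were placed by hand from their orthology label. Every member is named; values per library are given for the highest in TPM of each step, the 5 strongest rises and falls of each comparison, and members with opposite calls in N1 against C0 and N2 against N1, and the sentences on further genes that share reads were added after their values were seen.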

Additional observations from a re-analysis of the deposited data

How the results depend on the processing

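Of 108 member results, 91 were called and 82 of these calls held in all 15 alternatives. The fit without a filter, the fit of only the 2 groups compared and the fit with a replicate block kept every call and count of the members; with the block 30, 30 and 6 members rose and 3, 3 and 19 fell in the first-day, second-day and day-to-day comparison. Libraries of the same number did not deviate together (r of -0.022, 0.013 and -0.046 for C0 with N1, C0 with N2 and N1 with N2). These values cannot show whether equal numbers mark a shared culture or batch. Leaving out 1 library gave 29 to 30 rises, 2 to 3 falls and a median of 1.26 to 1.40 for N1 against C0. The second-day comparison gave 28 to 30, 2 to 3 and 1.00 to 1.05, and the day-to-day one 6 to 7, 18 to 20 and -0.25 to -0.22. With at least 2-fold also required, 1 member fell in N1 against C0, 19 rose and 0 fell in N2 against C0, and 2 rose and 0 fell in N2 against N1. Library totals alone, which moved the median of all genes by 0.09 between N1 and N2, gave 10 rises and a member median of -0.15 there. With limma on log2(FPKM + 1) and log2(FPKM + 0.1) the member median was 1.24 and 1.26 on the first day and -0.17 in both for N2 against N1. The fitted change of NO05G03790 against C0 depended on the pseudocount.

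Values that changed sign were all small and uncalled. With library totals NO02G05720 was 0.00031 and NO06G03600 0.015 in N2 against C0, and in N2 against N1 NO20G01600 was 0.062, NO14G01860 0.053, NO17G00800 0.030 and NO09G03170 0.036. With limma on log2(FPKM + 1) and log2(FPKM + 0.1), NO20G01600 was 0.106 and 0.108, NO14G01860 0.041 in both and NO09G03170 0.023 in both. Leaving out 1 library gave -0.13 to 0.058 for NO02G04170 in N1 against C0 and -0.19 to 0.118 for NO02G05720 in N2 against C0. In N2 against N1 it gave -0.14 to 0.037 for NO20G01600, -0.012 to 0.162 for NO19G01880, -0.14 to 9.7e-05 for NO17G00800 and -0.050 to 0.116 for NO29G00740. The cause was not tested.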
